A study of Mus musculus with 30 samples.

Results

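The Dlk1-Rian-Meg3 imprinted locus is a 700 kb stretch of mouse chromosome 12, chr12:109200001-109900000 in GRCm39. Transposon insertion sites were assigned to it by position alone. Of 2181704 nuclear sites mapped in 30 livers, 503 lay in the locus, 224 in PB livers and 279 in SB livers. The flanks, 2 Mb on each side (outer ends at 107200001 and 111900000), held 2234 PB and 1831 SB sites and served as the local comparison. Sites were mapped by streptavidin-based enrichment sequencing (SBE-seq), which amplifies the junction between a transposon end and the genome with a biotinylated primer. The DNA came from livers of Fah KO mice, the mouse model of tyrosinemia type I (TT1), treated in vivo with a PB (piggyBac) gene therapy vector in 17 livers or an SB (Sleeping Beauty) vector in 13. All animals thus carried the Fah knockout and a transposon treatment, and no untreated liver was analysed here. The strain, the age, the dose, the promoter of the vectors and the length of the monitoring periods are not given in the sources used here. The labels do not say how livers numbered above 12 differ from the others.

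Fah is the enzyme of the last step of tyrosine breakdown, and liver cells without it are lost unless the mice are protected by a drug. The Dlk1-Dio3 cluster is imprinted, so each of its genes is active on the chromosome of a given parent. Dlk1, a membrane protein of the Notch ligand family, Rtl1, a gene derived from a retrotransposon, and Dio3, a deiodinase of thyroid hormone, are expressed from the paternal chromosome. Meg3, Rian and Mirg are non-coding RNAs of the maternal chromosome. Rian is a host of small nucleolar RNAs (snoRNAs) and Mirg of a large group of microRNAs (miRNAs). In mice, the cluster is known for insertions of adeno-associated viral vectors found in liver tumours. PB moves by cut and paste into TTAA and SB into TA, and both duplicate their target on insertion.

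In the RefSeq annotation of GRCm38.p6, an older build, the genes followed each other in the order Wdr25, Begain, Dlk1, Meg3, Rtl1, Rian, Mirg and Dio3. From Dlk1 to Mirg it lists 60 miRNA genes, 19 snoRNA genes, 6 long non-coding RNA genes, 2 protein-coding genes and 2 pseudogenes. The insertion sites are in GRCm39, and no genome or annotation of that build was used. Sites were therefore not placed in genes, exons, introns or promoters, and the gene names attached to the locus were not checked against the sites. The insertion data hold no expression values, so the tissue could not be checked against marker genes.

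The promoter windows of the 4 genes named with the locus are shown with the target letters of the transposons marked where they occur. Each runs from 250 bases before to 50 bases after the RefSeq start, on the plus strand, and capitals mark every TA and TTAA. Both motifs read the same on either strand, and each TTAA holds 1 TA.
Dlk1, chr12:109452573-109452872 (GRCm38.p6, plus strand): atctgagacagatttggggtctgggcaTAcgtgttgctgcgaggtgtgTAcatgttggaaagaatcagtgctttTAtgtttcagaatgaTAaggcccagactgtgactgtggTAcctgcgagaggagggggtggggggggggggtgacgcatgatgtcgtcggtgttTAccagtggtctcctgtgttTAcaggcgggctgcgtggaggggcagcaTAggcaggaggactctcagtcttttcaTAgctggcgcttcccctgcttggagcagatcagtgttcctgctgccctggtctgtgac
Meg3, chr12:109540746-109541045 (GRCm38.p6, plus strand): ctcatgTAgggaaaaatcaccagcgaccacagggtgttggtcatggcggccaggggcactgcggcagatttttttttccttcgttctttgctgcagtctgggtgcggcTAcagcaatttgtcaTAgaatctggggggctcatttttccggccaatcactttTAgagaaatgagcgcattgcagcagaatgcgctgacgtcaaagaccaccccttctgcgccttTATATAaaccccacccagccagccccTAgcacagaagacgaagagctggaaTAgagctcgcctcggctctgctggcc
Rian, chr12:109603695-109603994 (GRCm38.p6, plus strand): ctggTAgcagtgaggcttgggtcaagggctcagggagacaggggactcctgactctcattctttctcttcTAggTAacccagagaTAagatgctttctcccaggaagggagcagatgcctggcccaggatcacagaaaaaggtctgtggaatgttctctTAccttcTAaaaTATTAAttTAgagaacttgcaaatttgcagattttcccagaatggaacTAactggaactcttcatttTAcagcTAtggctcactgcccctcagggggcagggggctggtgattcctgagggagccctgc
Mirg, chr12:109734731-109735030 (GRCm38.p6, plus strand): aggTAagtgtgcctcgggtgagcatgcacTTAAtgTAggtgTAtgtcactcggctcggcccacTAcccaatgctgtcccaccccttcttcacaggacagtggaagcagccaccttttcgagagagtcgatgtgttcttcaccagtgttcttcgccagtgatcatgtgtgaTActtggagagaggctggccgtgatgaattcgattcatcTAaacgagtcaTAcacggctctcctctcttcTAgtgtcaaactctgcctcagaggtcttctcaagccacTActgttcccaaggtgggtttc
The window of Meg3 is the first of 2 listed for that gene. TA occurred 9 times in the Dlk1 window, 9 times in the Meg3 window, 12 times in the Rian window and 10 times in the Mirg window. TTAA occurred 1 time each in the Rian and Mirg windows and did not occur in the other pair. Among 32851 mouse promoter windows of the same 300 bases, 99.1% held TA, with a median of 10, and 52.4% held TTAA. The matches describe letters in these windows only, and their coordinates cannot be set against the GRCm39 sites.

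The locus took a smaller share of the insertions in PB livers than in SB livers. Depth ranged from 16364 to 124238 nuclear sites per liver in PB (median 71303) and from 4893 to 120219 in SB (median 80254). PB livers 1 to 17 held, in that order, 15, 13, 26, 16, 22, 15, 22, 16, 18, 12, 10, 14, 5, 2, 14, 4 and 0 sites in the locus. SB livers 1 to 13 held 34, 9, 24, 14, 15, 24, 22, 32, 35, 16, 24, 29 and 1. Counts thus stayed at 26 or below in every PB liver, while 4 SB livers, numbers 1, 8, 9 and 12, had 29 or more.

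Scaled to depth, the locus held 1.81 ± 0.782 sites per 10000 nuclear sites in PB livers, against 2.90 ± 0.779 in SB livers (SD, n = 17 and 13). PB values ran from 0 through a median of 1.89 to 3.45, and SB values from 2.00 through 2.99 to 4.05. Of the 17 PB livers, 10 lay below every SB liver, and the ranges overlapped. PB liver 17 had 0 of 16870 sites in the locus, which allows up to 1.78 per 10000 (the limit that a count of 0 leaves, 3 counts, for counting error only). PB liver 15 had the highest PB value. Of its 14 sites, 6 formed a run on the plus strand at chr12:109572138-109572146 with low support, 3 to 19. With sites within 10 bp merged, this liver stood at 2.29 per 10000.

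The difference passed the test over all 700 kb windows of the genome, of which the locus is exactly 1. The log2 difference, PB minus SB, was -0.72 (SE 0.16, 95% interval -1.03 to -0.41), a density 0.607 times that of SB (limma-voom, adjusted p = 0.000125). Lower density in PB was common: 38.2% of the 3642 windows tested were called lower in PB and 17.5% higher. The median window itself lay at -0.21, and 13.8% of windows had a difference below that of the locus. Centred on the median window, the locus stood at -0.51 (limma-voom, adjusted p = 0.00612), with 19.2% of windows then called lower and 29.7% higher. Among the same windows the density of the locus was above 43.6% of windows in PB, where the median window had 2.16 sites per 10000. In SB it was above 58% of windows, with a median window of 2.52. In neither system was the locus at an extreme of the genome.

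Livers 1 to 12 of each group fell into separate ranges of the share of sites on the X chromosome, and the comparison was repeated within them. Livers numbered above 12 were not assigned to these ranges. In livers 1 to 6 the X share was 2.20% to 2.27% in PB and 2.26% to 2.59% in SB, and there the locus held 2.08 ± 0.271 sites per 10000 in PB and 2.98 ± 0.729 in SB (SD, n = 6 each). The log2 difference was -0.50 (limma-voom, adjusted p = 0.048). In livers 7 to 12, with X shares of 3.49% to 3.65% in PB and 3.801% to 4.23% in SB, the densities were 1.598 ± 0.454 in PB and 2.96 ± 0.875 in SB (SD, n = 6 each). The difference was -0.90 (limma-voom, adjusted p = 0.000326). The locus was thus lower in PB in both sets of livers. This split was not planned. The median window and the share of windows called were not counted within the sets. Over all livers the median window lay at -0.21, and 38.2% of windows were called lower in PB. PB livers 13 to 17 averaged 1.75 ± 1.38 sites per 10000 (SD, n = 5).

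**Figure D1:**
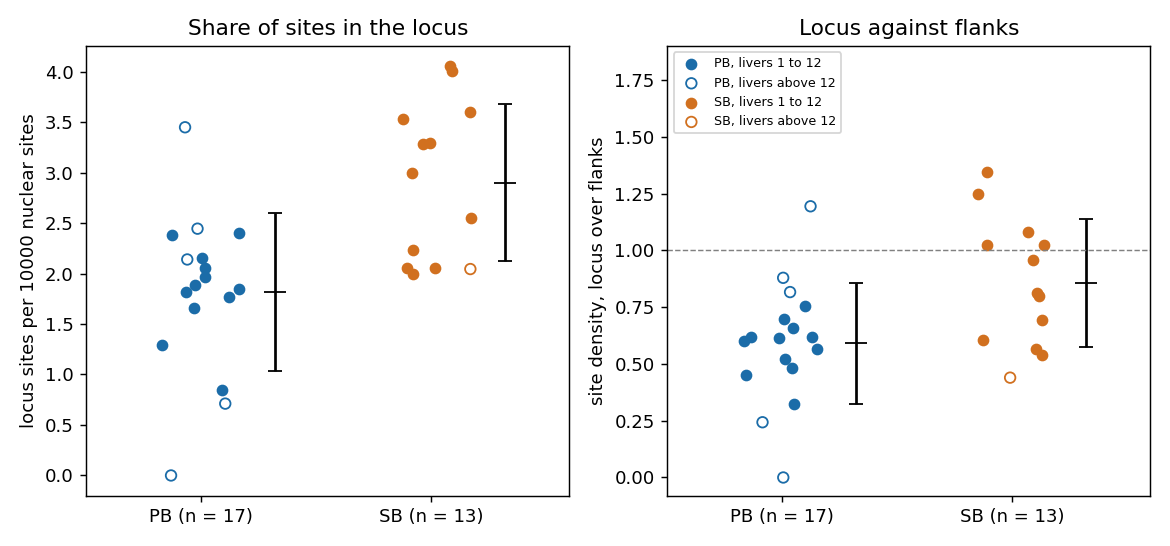
Left, locus sites per 10000 nuclear sites in each liver; right, site density of the locus divided by that of its flanks. PB is left of SB, filled points are livers 1 to 12, open points livers above 12, black bars the mean ± SD, and the dashed line marks equal density. PB means were 1.81 and 0.591, SB means 2.90 and 0.856, and the ranges overlapped in both panels.

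The locus held fewer PB sites per step than both flanks combined, but not than its left flank alone, against which the log2 ratio was -0.05 (limma, adjusted p = 0.778). A 10 kb step of the locus held 0.188 ± 0.103 sites per PB liver, against 0.329 ± 0.174 per step of the flanks (SD, n = 17). In SB livers a step held 0.307 ± 0.145 sites in the locus and 0.352 ± 0.149 in the flanks (SD, n = 13). The density of the locus over that of the flanks averaged 0.591 ± 0.265 in PB (SD, n = 17, lowest 0, median 0.612, highest 1.19 in liver 15). It averaged 0.856 ± 0.283 in SB (SD, n = 13, lowest 0.440, median 0.811, highest 1.34 in liver 8). Of the PB livers, number 15 alone lay above equal density, against SB livers 4, 6, 8, 9 and 12.

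On the log2 scale, with a pseudocount of 0.5 sites in the locus and in the flanks, the PB ratio was -0.89 (SE 0.18), a fold of 0.540 (95% interval 0.421 to 0.692), and passed the test (limma, adjusted p = 2.77e-05). Of 3581 windows set against their own flanks in PB, 47.2% were called lower and 32.3% higher, so a call in either direction was frequent, and 26.4% had a ratio below that of the locus. The SB ratio was -0.23 (SE 0.20), a fold of 0.852 (95% interval 0.641 to 1.13), and did not pass (limma, adjusted p = 0.328), with 30.9% of windows called lower and 27.8% higher. The difference between the systems, PB minus SB, was -0.66 (SE 0.27, 95% interval -1.20 to -0.11). It stood just inside the threshold of 0.05 (limma, adjusted p = 0.04999), where 24.4% of windows were called lower and 14.4% higher. The call was lost on leaving out any 1 of PB livers 2, 3, 5 to 12 and 14 or SB livers 1, 3, 4, 6 to 10 and 12. In those 20 fits the adjusted p lay between 0.0508 and 0.0836, and the difference over all 30 such fits between -0.73 and -0.46.

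The flanks themselves were unlike each other, and the locus lay between a sparse left side and a dense right side. Per step and per 10000 nuclear sites, PB livers averaged 0.0251 sites in the left flank, 0.0259 in the locus and 0.0659 in the right flank. SB livers averaged 0.0333, 0.0414 and 0.0661 in the same places. The right flank thus had similar densities in both systems, while the locus and the left flank were lower in PB by their means. SB liver 13 was highest in the left flank, 0.0613 from 6 sites, and PB liver 17 in the right flank, 0.1215. In livers 1 to 12 alone, the left flank averaged 0.0270 in PB and 0.0310 in SB, and the right flank 0.06375 and 0.06569. Set against the left flank alone, the SB ratio of 0.35 did not pass either (limma, adjusted p = 0.0694). Set against the right flank alone, both passed, with -1.42 in PB (limma, adjusted p = 2.56e-08) and -0.65 in SB (limma, adjusted p = 0.00999). The PB call therefore depended on the right flank.

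**Figure D2:**
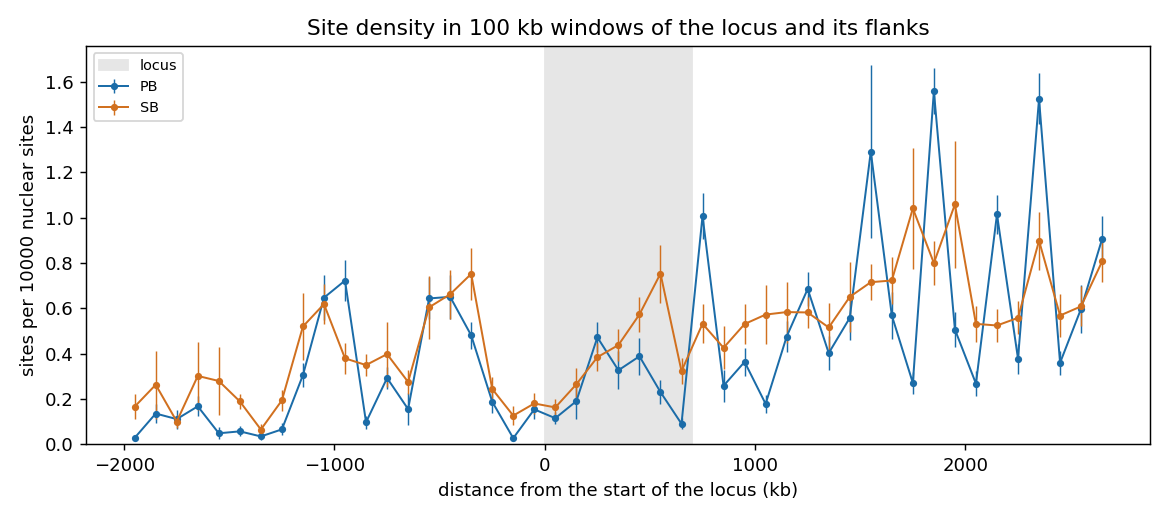
Mean sites per 10000 nuclear sites in 100 kb windows, PB in blue and SB in orange, by distance from the start of the locus; bars are the standard error over livers and the grey band is the locus. Window medians were 0.155 (left flank), 0.230 (locus) and 0.532 (right flank) in PB and 0.277, 0.384 and 0.583 in SB. The highest PB window, 1.56, began 1800 kb from the start of the locus and the highest SB mean, 1.06 ± 0.280 (SEM), 1900 kb from it. That SB window held 74 sites, 2 of them from SB liver 13, where 1 site counts as 2.04 per 10000. Without that liver its mean was 0.806, and the highest SB window was the one from 2300 kb, with 93 sites and a mean of 0.974.

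The 100 kb steps of the locus called lower in PB were the 3 at its right end. In the 7 steps of 100 kb, from the left end of the locus onwards, PB livers held 16, 22, 68, 39, 41, 25 and 13 sites, and SB livers held 18, 28, 39, 43, 58, 59 and 34. PB sites were most frequent in the step from 109.4 Mb, with 0.472 ± 0.271 per 10000 in PB (SD, n = 17) against 0.384 ± 0.219 in SB (SD, n = 13). This step alone had the higher mean in PB, with a log2 difference of 0.29 that did not pass (limma-voom, adjusted p = 0.467) and turned to -0.16 without positions found in more than 1 liver. SB sites were most frequent in the step from 109.7 Mb, with 0.230 ± 0.224 per 10000 in PB and 0.753 ± 0.461 in SB, where the highest value, 2.04, was the single site of liver 13.

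PB was lower in 3 of the 7 steps and higher in 0 (limma-voom, also 0 at an unadjusted p under 0.05), where 14.4% of 20876 windows of 100 kb were called lower in PB and 10.3% higher. In the step from 109.6 Mb, the densities were 0.388 ± 0.337 in PB and 0.573 ± 0.274 in SB, a log2 difference of -0.87 (limma-voom, adjusted p = 0.0186). In the step from 109.7 Mb the difference was -1.51, a density 0.350 times that of SB (limma-voom, adjusted p = 0.000248). In the step from 109.8 Mb, 0.0903 ± 0.101 in PB stood against 0.323 ± 0.204 in SB, a difference of -1.37 (limma-voom, adjusted p = 0.00243). Differences of -0.31, -0.60 and -0.58 in the first and second steps and in the step from 109.5 Mb did not pass. All 7 steps together gave 3 calls, of which 2 remained in number after centring on the median window, where 3.78% of windows were called lower and 17.2% higher. With positions of more than 1 liver left out, 0 of the 7 steps passed (limma-voom, with 3 lower in PB at an unadjusted p under 0.05). In livers 1 to 6 alone 1 step passed, and in livers 7 to 12 alone 2 did. For those alternatives the share of all 100 kb windows called was not counted.

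**Figure D3:**
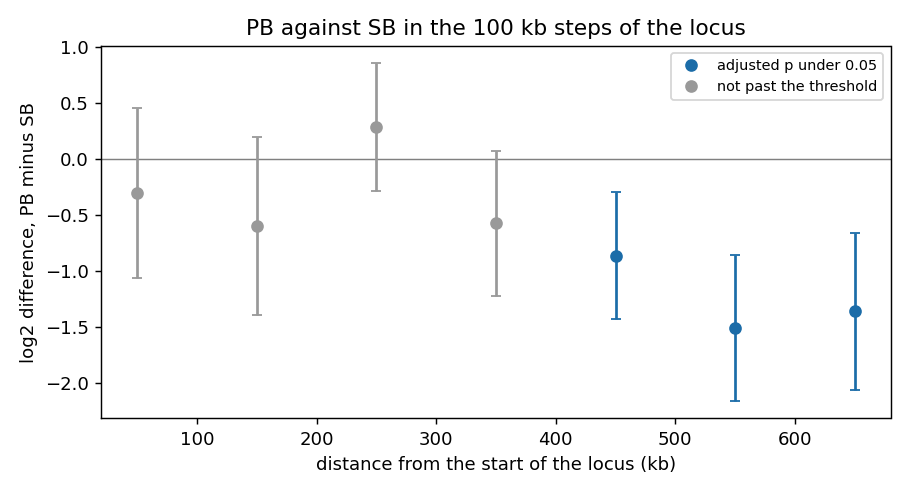
Log2 difference in site density, PB minus SB, in the 7 steps of 100 kb of the locus, by distance from its start; bars are 95% intervals of the limma-voom fit. The 3 steps on the right (blue, adjusted p under 0.05) lay between -1.51 and -0.87, and the other 4 (grey) between -0.60 and 0.29.

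At a finer grain, the PB sites of the locus were spread less evenly over its 10 kb steps than the SB sites. Of the 70 steps, 11 held no PB site and 4 no SB site, and the median step held 2 PB and 3 SB sites. The 5 densest steps held 86 PB sites (38.4%) and 66 SB sites (23.7%). The variance of the counts over steps was 7.34 times their mean in PB and 2.78 times in SB. These values describe sums over livers, with no test and no matching values for steps outside the locus. The PB sums include 14 records of 1 position and the run of 6 sites in liver 15. The SB sums include runs of 3 sites in liver 8 and in liver 9. Over the 70 steps, the PB and SB counts had a Spearman correlation of 0.153 and a Pearson correlation of 0.130. The steps share the genome sequence but not the livers.

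The densest PB step was chr12:109490001-109500000, with 31 sites in 12 of 17 PB livers against 2 in SB livers. The next were chr12:109620001-109630000 with 18 PB and 8 SB sites, chr12:109480001-109490000 with 16 and 9, and chr12:109570001-109580000 with 11 and 3. The steps chr12:109470001-109480000 and chr12:109760001-109770000 had 10 PB sites each, against 5 SB sites each. Of these 6 steps, 3 adjoin each other and close the 100 kb step from 109.4 Mb. Of the 11 PB sites of chr12:109570001-109580000, 6 were the run in liver 15. Of the 31 PB sites of chr12:109490001-109500000, 14 were records of 1 position and 6 of another, 30 bp away. The steps here and those for SB below were picked by the counts of 1 system, which favours a lower count in the other.

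The densest SB step was chr12:109720001-109730000, with 0 PB and 18 SB sites. The SB sites came from 8 of 13 livers, and liver 8 alone gave 6. A run of 3 minus-strand sites in that liver, at chr12:109722157-109722162, was part of them. Next came chr12:109610001-109620000 with 2 PB sites and 14 SB sites, in 11 SB livers, chr12:109630001-109640000 with 8 and 13, and chr12:109770001-109780000 with 2 and 12. The steps chr12:109480001-109490000 and chr12:109500001-109510000 held 16 and 6 PB sites, against 9 SB sites each. The step from 109480001 was the sole one among the densest of both systems.

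Steps without a PB site began at 109270001, 109290001, 109380001, 109390001, 109400001, 109510001, 109710001, 109720001, 109800001, 109850001 and 109870001. Those without an SB site began at 109230001, 109280001, 109550001 and 109870001. The last was empty in both systems. With 0 PB sites, the step from 109390001 held 7 SB sites and the steps from 109400001 and 109710001 held 5 each.

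**Figure D4:**
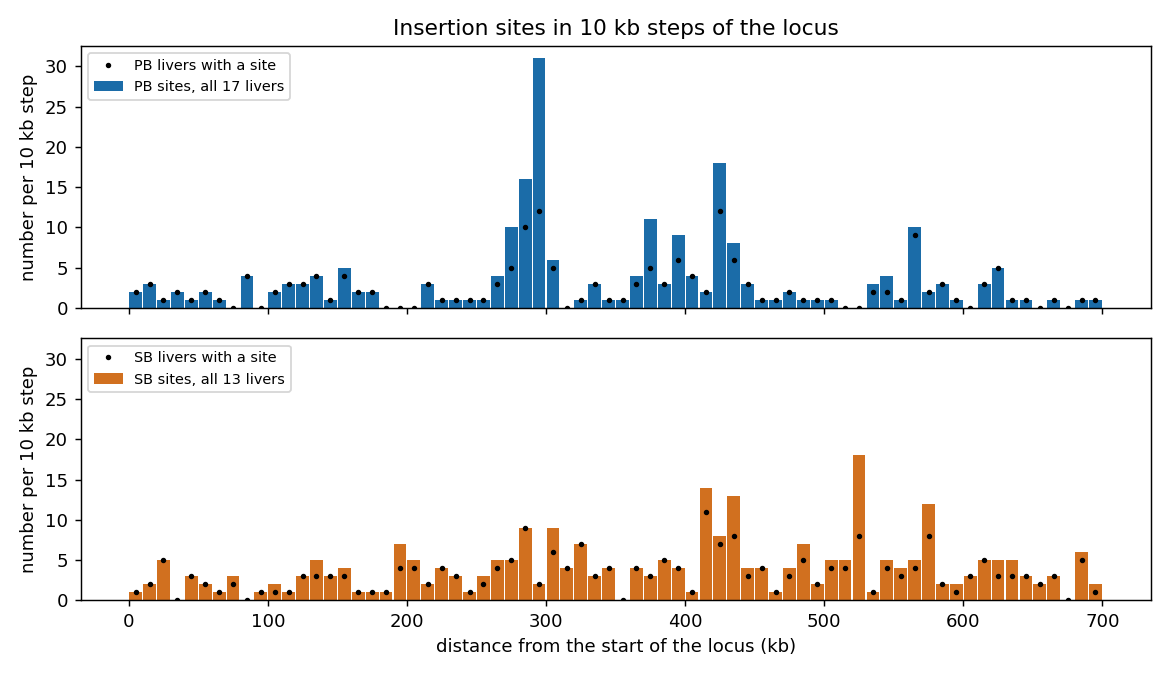
Insertion sites in the 70 steps of 10 kb of the locus, PB above SB, by distance from its start; bars are sites summed over livers and dots the number of livers with a site. The step of the tallest PB bar held 31 PB sites and 2 SB sites, and that of the tallest SB bar 0 PB sites and 18 SB sites.

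Several PB livers had sites recorded at the same base pairs of the locus, which was rare in SB. The PB sites lay at 180 positions, and 20 of them (11.1%) occurred in at least 2 livers, strand ignored. Over the whole genome this share was 16.9% (153971 of 908720 positions). The SB sites lay at 272 positions, of which 7 (2.57%) occurred in 2 livers and none in more, against 1.91% over the genome (17780 of 929790). With strand taken into account, 22.9% ± 14.5 of the locus sites of a PB liver were found in another PB liver (SD, n = 16 livers with a site), against 30.9% ± 3.75 in the flanks and 29.3% ± 1.37 in the genome (SD, n = 17). In SB livers the shares were 1.79% ± 2.52 in the locus, 3.11% ± 1.85 in the flanks and 2.14% ± 0.150 in the genome (SD, n = 13). In both systems the mean share in the locus lay below that of the genome by less than its SD between livers. A position counts in every liver that holds it, so these values depend on each other and were not tested.

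Of the 51 reused PB sites, 35 lay in the 100 kb step from 109.4 Mb. The position found in most livers was chr12:109497833-109497836, in PB livers 1, 2 and 4 to 12. It carried 14 records, 6 on the plus and 8 on the minus strand, and livers 9, 11 and 12 held both strands. Its support, the number deposited beside a site, taken here as its reads, ranged from 12 to 209, and its rank within a liver from 11.95% to 99.9%. Over the whole genome, 879 of 908720 PB positions (0.0967%) reached 11 livers. It was thus recorded on both strands and in livers of both X-share ranges. Whether its records in different livers are separate insertions was not tested.

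A second position, chr12:109497803-109497806, lay 30 bp away and occurred in 6 PB livers, with 3 records on each strand and support of 4 to 62. All 20 PB sites within 1 kb of the most reused position were the 14 records at that position and the 6 at this second one. SB sites there numbered 0, but the place was picked by its PB sites, so the counts do not compare the systems. The 10 kb step of the most reused position held 31 PB sites at 9 positions, and 17 of these sites lay off that position. The positions chr12:109486965-109486968 and chr12:109629057-109629060 followed, each in 4 PB livers and each with records on both strands.

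The 7 SB positions shared by livers began at 109323107, 109474124, 109527226, 109720263, 109726220, 109770219 and 109772748, each in 2 livers. At 4 of them the records were on opposite strands, and at the other 3 on the same strand. No SB site of the locus lay on the central TA of a PB target (0 of 180 PB positions and 0 of 272 SB positions). Over the genome 0.232% of PB and 0.227% of SB positions did, shares so small that 0 does not set the locus apart. With strand ignored, the largest number of locus positions that a pair of livers shared was 5 in PB, between livers 5 and 7 with 22 positions each, and 2 in SB, between livers 1 and 11 with 34 and 24. With strand matched, it was 2 in PB and 1 in SB.

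Over all livers, the sites of the locus lay on both strands in near balance. The strand is that of the deposited record, and whether it refers to the transposon or the read is not given in the sources used here. On the minus strand lay 105 of 224 PB sites, 46.9% (95% exact binomial interval 40.2% to 53.6%), and 151 of 279 SB sites, 54.1% (48.1% to 60.1%), with intervals that cover counting error only. Per liver, the minus share averaged 45.2% ± 18.4 in PB (SD, n = 16, range 0% to 68.8%) and 48.4% ± 19.4 in SB (SD, n = 13, range 0% to 75%). The difference of -3.14 percentage points did not pass (permutation test, two-sided, p = 0.66, adjusted p = 0.71 over 4 tests). Over the genome the minus share was 51.0% in PB and 51.3% in SB.

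Single livers departed from this balance. PB liver 7 had 3 of 22 sites on the minus strand, whereas SB liver 8 had 24 of 32 and SB liver 9 had 23 of 35. In livers 1 to 6, the minus share per liver averaged 58.0% ± 5.84 in PB, from 53.3% to 68.8%, and 44.3% ± 6.93 in SB, from 33.3% to 54.2% (SD, n = 6 each). In livers 7 to 12 it averaged 38.3% ± 15.9 in PB, from 13.6% to 62.5%, and 60.5% ± 13.7 in SB, from 41.4% to 75% (SD, n = 6 each). In both sets the ranges of the systems overlapped. The values by set were looked at after the data were seen, and no difference between the sets was tested.

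Locus sites had about the support of other sites of their liver. A number far above the rest would mark a site with many reads, though amplified reads without molecular identifiers are not a count of cells. In livers with at least 5 locus sites, the log2 ratio of the median support in the locus to that of the whole liver was -0.05 ± 0.39 in PB (SD, n = 14). PB ratios ran from -1.20 in liver 15 through a median of 0.093 to 0.36 in liver 6. In SB the ratio was -0.11 ± 0.30 (SD, n = 12), from -0.87 in liver 3 through -0.015 to 0.22 in liver 10. The ratio did not differ from 0 by the test in PB (sign-flip permutation test, p = 0.71) or in SB (sign-flip permutation test, p = 0.21). The difference between the systems was 0.06 (permutation test, p = 0.68), and all adjusted p over the 4 tests were 0.71. In PB liver 15 the median support in the locus was 26.5, and 50 with sites within 10 bp merged.

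Locus sites were neither clearly more nor clearly less often among the best supported of their liver than all sites. In the top 1% stood 4 of 224 PB sites, 1.79% (95% exact interval 0.489% to 4.51%), and 1 of 279 SB sites, 0.358% (0.00907% to 1.98%). In the top 10% stood 20 PB sites, 8.93% (5.54% to 13.4%), and 27 SB sites, 9.68% (6.47% to 13.8%). These intervals cover counting error alone, and all of them include the share of all sites of the genome, near 1% or 10%. Median ranks were 63.4% for the 51 PB sites reused on the same strand and 49.4% for the other 173. In SB they were 42.2% for 6 reused sites and 47.1% for the other 273. Of the 51 reused PB sites, 14 were records of 1 position, chr12:109497833-109497836, with a median rank of 78.1%. The ranks of reused and other sites were not tested or set against the genome.

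The best supported PB site was chr12:109579916-109579919 on the minus strand of liver 6, with a support of 286, 4.47 times the median of that liver. Of its 79533 sites, 23 had more. The same position and strand was found in liver 2. Next came the most reused position, chr12:109497833-109497836, on the minus strand of liver 5 (support 209, 89 of 121266 sites above it) and of liver 8 (support 121, 227 of 96321 above it). The others were chr12:109504246-109504249 in liver 7, with a support of 46, and chr12:109574359-109574362 in liver 9, with 173. All 5 lay within the central part of the locus.

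The best supported SB site was chr12:109580494-109580495 on the plus strand of liver 12, with a support of 150, 2.50 times the median of that liver, and 771 of 82221 sites above it. It was followed by chr12:109770466-109770467 in liver 3 (support 108) and by chr12:109835394-109835395 in liver 9. The fourth, chr12:109277036-109277037 in liver 1, had a support of 119, and the fifth, chr12:109777190-109777191 in liver 9, one of 108. None of these SB positions was found in another liver. No locus site was the best supported of its liver in either system.

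**Figure D5:**
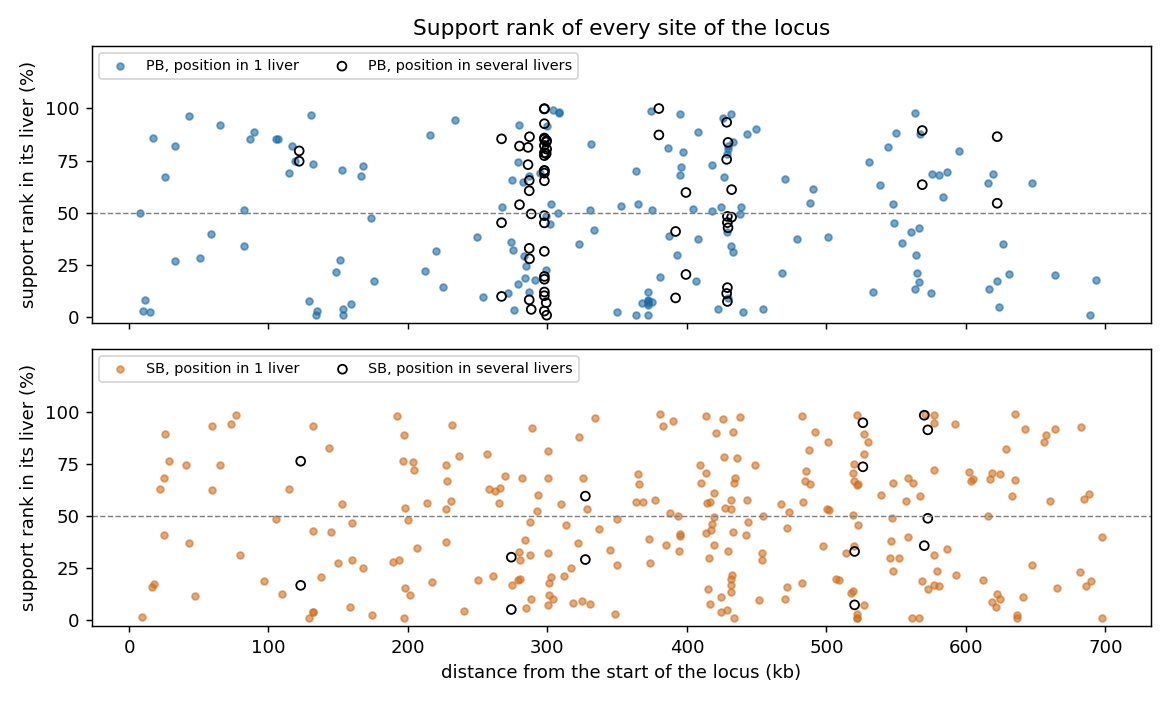
Rank of the support of every locus site within its liver, in percent, by distance from the start of the locus, PB above SB; open circles are positions found in several livers and the dashed line is the middle rank. The 503 sites cover the whole range of ranks in both systems, and the open circles of PB gather near 300 kb, where the most reused position lay.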

How the data were processed

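Per the labels' protocols, liver DNA was fragmented, ligated to a linker and amplified in nested PCRs before Illumina sequencing. Per the submitters' processing notes, cutadapt and BWA were used with GRCm39. Tool versions are not given in the sources used here. The authors' deposited tables list sites with a strand and a whole number (support), taken here as reads. Its minimum was 3 in both groups. A listed PB site is 4 bp long and a listed SB site 2 bp. Merged tables, also deposited, were not used. Mitochondrial sites were left out.

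Sites were counted in 700 kb and 100 kb windows of the nuclear genome. Those averaging 1 or more sites a liver were fitted with limma 3.58.1 in R 4.3.3, with voom weights for PB against SB and log2 ratios for windows against flanks (mean of at least 4 flank sites), and p-values were adjusted by the Benjamini-Hochberg method over all windows. The fits were also run on simulated counts. For the flank fits these had no spread between livers beyond depth and counting error, so they cannot vouch for single calls. Strand and support were compared per liver by two-sided permutation tests with 100000 resamples (Python 3.11.15, scipy 1.17.1). Each liver was 1 replicate.

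Members, named steps and tests were chosen with earlier results of these data known. The text names, for each group, the 3 positions shared by most livers with ties (for SB all 7, since they tie, above the planned limit of 6), the 5 densest 10 kb steps with ties, all empty steps and the 5 sites of each group ranked highest by support. Liver numbers were not taken to pair livers: over windows, 4 of 13 same-numbered pairs correlated above 0.1 (range 0.03 to 0.13). Counts in genes of GRCm39 were not made, since no annotation of that build was used.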

Additional observations from a re-analysis of the deposited data

Results flagged for a closer look

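The ratio of locus to flank density differed between PB and SB by a test of the difference itself. It was -0.89 in PB and -0.23 in SB on the log2 scale, and the difference, PB minus SB, was -0.66 (limma, adjusted p = 0.04999). The call was lost in 20 of the 30 fits that each left out 1 liver, where the difference lay between -0.68 and -0.60 and the adjusted p between 0.0508 and 0.0836. These were the fits without PB liver 2, 3, 5, 6, 7, 8, 9, 10, 11, 12 or 14 or without SB liver 1, 3, 4, 6, 7, 8, 9, 10 or 12. PB liver 17, with 0 locus sites, moved it most, to -0.46 without it (limma, adjusted p = 0.0378).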

How the results depend on the processing

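The lower density of the locus in PB kept its direction and its call in all 12 alternatives and without each liver in turn. Log2 differences were -0.90 to -0.50 in the alternatives (limma, adjusted p from 1.01e-05 to 0.048) and -0.79 to -0.62 without 1 liver. The alternatives include the unplanned sets of livers 1 to 6 and 7 to 12. The share of all 700 kb windows called was counted only for the main fit and after centring. Livers left out in turn gave -0.96 to -0.69 for the locus against the flanks in PB, -0.29 to -0.18 in SB, -0.73 to -0.46 for PB minus SB, and 3 to 4 called steps of 100 kb. Against the left flank alone the PB ratio was -0.047 and no longer passed. The SB ratio turned to 0.35 against the left flank and to 0.085 with each liver thinned to 16364 sites (SB liver 13 left out), and passed at -0.65 against the right flank. The PB minus SB difference against the flanks no longer passed without positions found in more than 1 liver (-0.35), thinned (-0.87), in livers 1 to 6 (-0.38), with flanks of 1 Mb (-0.68) or against the left flank (-0.40). Livers 1 to 12 alone gave -0.59 and a support of at least 10 gave -0.70, both passing. For steps of 100 kb, 14.4% of 20876 windows were called lower in PB in the main fit. That share was not counted for the alternatives given here or with livers left out, so their numbers of called steps lack a background. In livers 1 to 6 alone, 1 of the 7 steps of 100 kb passed, and in livers 7 to 12 alone 2 did. Without positions found in more than 1 liver, 0 passed, and this alternative removes more PB than SB sites. Without those positions the first 3 steps of the locus turned to 0.34, 0.12 and -0.16. The first step turned to 0.018 after centring on the median window and the second to 0.19 in livers 1 to 6. The support ratio in PB was 0.023 in livers 1 to 12, and its PB minus SB difference was -0.033 with the mean of log2 support and -0.069 without shared positions. None of these turned values passed a test, and the cause of the changes was not tested.

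With the liver number as a replicate block, the density difference was -0.69 and the ratios to the flanks -0.74 in PB and -0.23 in SB, with -0.51 for PB minus SB. The block left 3 called steps of 100 kb, and the share of all such windows called was not counted. It turned the strand difference to 0.699 percentage points (permutation test, p = 0.93) and gave 0.14 for support (permutation test, p = 0.16). It changed no call. Thinning gave no value for 100 kb steps, since no step of the locus then reached a mean of 1 site per liver. The locus held 0 to 35 sites per liver, so 10 kb steps, single livers and strand shares carry a large counting error.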
